A study of Gallus gallus with 6 samples.

Results

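TEK, VWF, PECAM1 and GJA4 are genes of the endothelium, the cell layer that lines blood vessels, and they were followed here across 6 bulk RNA-seq libraries made from mesenchyme of the chick (Gallus gallus). They were picked by name, as the rows for TEK, VWF and PECAM1 and the row listed under the UniProt entry name Q6XVN9_CHICK, which is GJA4. These are 4 of 17781 rows in the table, and 0 further rows carried any of the 4 symbols. All 4 reached 1 CPM (counts-per-million value) in some library. The table places TEK on the plus strand of chromosome Z, VWF on the minus strand of chromosome 1, PECAM1 on the minus strand of chromosome 18 and GJA4 on the minus strand of chromosome 23. At each locus 0 other rows overlapped the gene.

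The tissues came straight from untreated embryos staged by the Hamburger-Hamilton (HH) series, and each gave 1 polyA library. Limb tissue was represented by presumptive forelimb of HH15 embryos, by hindlimb of HH18 embryos and by forelimb of HH19 embryos. Non-limb tissue, all of HH19, was represented by neck, by flank and by a library that its label calls flank and neck together. The flank library carries HH19 in its source label and 9 in its title. No strain, sex, number of embryos or cell sorting was given in the sources used here, so each library is mesenchyme as dissected, with whatever vessels, blood and covering ectoderm came with it.

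Vessels form in the early embryo from mesodermal precursors, which assemble into a first network before arteries and veins become distinct. TEK (also called TIE2) is the receptor tyrosine kinase for the angiopoietins, and its signalling steadies vessels and guides the growth of veins. VWF is the large secreted glycoprotein that endothelial cells store in granules and that tethers thrombocytes, the bird counterpart of platelets, to damaged walls. PECAM1 (CD31) is an adhesion molecule at the contacts between endothelial cells and in mammals is also carried by platelets and leukocytes. GJA4 encodes connexin 37, a gap junction channel subunit that in mouse marks arterial endothelium.

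Between 7130877 and 9623046 reads were counted to genes per library, and 3 reads, the floor used here, corresponded to between 0.312 and 0.421 CPM. Values below are CPM, with 95% Wilson intervals that cover counting error only. With 1 library for each tissue and stage no level has a replicate error. Transcript lengths were not used, so levels are compared between libraries for the same gene and never between genes. The summed level of the 5 globin genes, carried by red blood cells, ran from 44.6 CPM in flank and neck to 40064 CPM in flank. The mesenchymal regulator PRRX1 was present in every library, at 117 to 491 CPM. Of the neural markers, SOX2 and PAX6 stayed at or below 0.280 CPM, while ELAVL4 had 21.9 to 37.1 CPM. In a bulk library fewer endothelial cells and less RNA of a gene per endothelial cell cannot be told apart.

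TEK stood at a similar low level everywhere except in neck. It had 39 reads in presumptive forelimb, 38 in the HH19 forelimb, 66 in hindlimb, 325 in neck, 50 in flank and 44 in flank and neck. The corresponding levels were 5.47, 4.78, 6.86, 39.9, 6.04 and 4.93 CPM. The neck interval of 35.8 to 44.5 CPM lay far above that of the next library, hindlimb, at 5.39 to 8.72 CPM. In the order hindlimb, flank, presumptive forelimb, flank and neck, and forelimb HH19, each library's interval overlapped that of its neighbour. The level in neck was 6.61 times that in flank, 8.10 times that in flank and neck, 5.82 times that in hindlimb, 7.30 times that in presumptive forelimb and 8.36 times that in forelimb HH19.

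VWF also stood out in neck, at fewer reads, but unlike TEK it was lower in flank and neck than in most libraries. Its reads numbered 34 in presumptive forelimb, 24 in the HH19 forelimb, 38 in hindlimb, 131 in neck, 30 in flank and 12 in flank and neck. These gave 4.77, 3.02, 3.95, 16.1, 3.63 and 1.34 CPM. Neck again stood alone, with an interval of 13.6 to 19.1 CPM against 3.41 to 6.66 CPM in presumptive forelimb, the next library. The other libraries could not be separated from their neighbours in the order. The lowest, flank and neck at 0.769 to 2.35 CPM, nevertheless lay below presumptive forelimb, hindlimb (2.88 to 5.42 CPM) and flank (2.54 to 5.18 CPM). The level in neck was 4.44 times that in flank and 11.97 times that in flank and neck.

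PECAM1 was also highest in neck, but its levels lay in 3 tiers rather than the 2 of TEK. Its reads numbered 52, 59 and 64 in presumptive forelimb, the HH19 forelimb and hindlimb, and 213, 129 and 120 in neck, flank, and flank and neck. The limb levels of 7.29, 7.41 and 6.65 CPM had overlapping intervals, from 5.21 at the lowest bound to 9.56 at the highest. Flank at 15.6 CPM (13.1 to 18.5) and flank and neck at 13.4 CPM (11.2 to 16.1) overlapped each other and lay above every limb library. Neck at 26.2 CPM (22.9 to 29.9) lay above both of them. The ratio of neck to flank was 1.68 and that of neck to flank and neck 1.95, while neck to hindlimb reached 3.93.

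GJA4 ran the other way, with its highest levels in the limb libraries and its lowest in neck and flank. There were 40 reads in presumptive forelimb, 29 in the HH19 forelimb, 66 in hindlimb, 6 in neck, 6 in flank and 18 in flank and neck. The levels were 5.61, 3.64, 6.86, 0.737, 0.725 and 2.02 CPM. Each library's interval overlapped that of its neighbour in the order, so the sequence of levels is a gradient without a clear step. Its ends are apart, with hindlimb at 5.39 to 8.72 CPM against 0.338 to 1.61 CPM in neck and 0.332 to 1.58 CPM in flank. Hindlimb had 9.30 times the neck level and 9.46 times the flank level, and forelimb HH19, the lowest limb library, had 4.94 times the neck level. With 6 reads in neck and 6 in flank, the size of these ratios is loosely fixed.

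**Figure D1:**
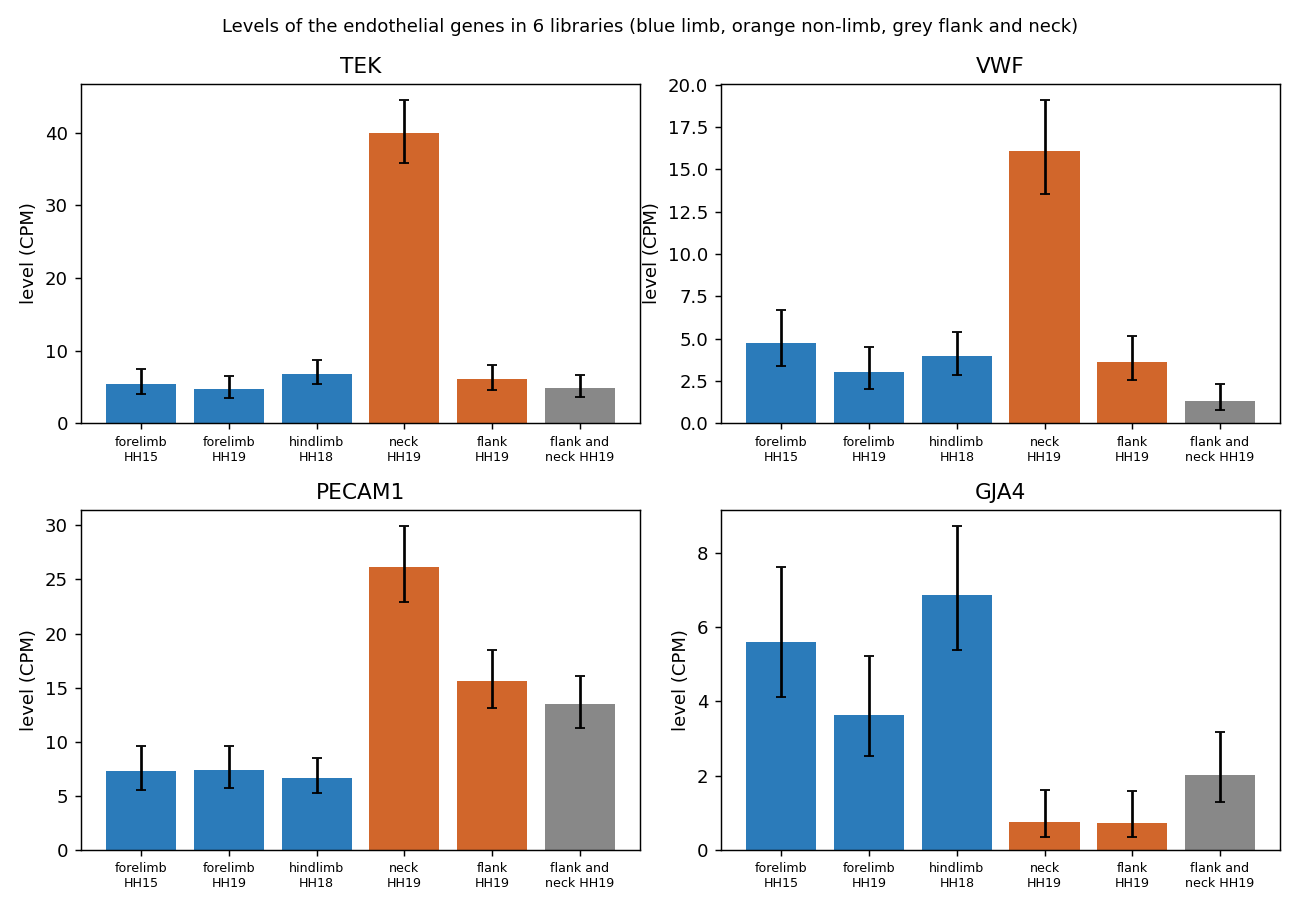
Levels of TEK, VWF, PECAM1 and GJA4 in CPM (vertical axes, each starting at 0) in each of the 6 libraries, with bars for the level and whiskers for the 95% Wilson interval of counting error. Neck is the tallest bar for TEK (39.9 CPM), VWF (16.1) and PECAM1 (26.2), while GJA4 is at 0.737 CPM in neck and 6.86 CPM in hindlimb.

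Across the 15 pairs of libraries the 4 genes gave 60 differences, of which 25 were at least 2-fold on the log2(CPM + 1) scale. These differences rest on 1 library each and have no test. TEK and VWF were at least 2-fold higher in neck than in every other library, and PECAM1 was so against the 3 limb libraries. Among all genes, the share that was at least 2-fold higher in neck was 8.85% against presumptive forelimb, 13.4% against forelimb HH19, 12.4% against hindlimb, 5.15% against flank and 11.4% against flank and neck. PECAM1 was at least 2-fold higher in flank than in presumptive forelimb, where 4.91% of genes were, and than in hindlimb, where 8.88% were. Against forelimb HH19 the log2 difference, forelimb minus flank, was -0.98, just short of 2-fold.

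GJA4 was at least 2-fold higher in every limb library than in neck and than in flank. The share of all genes that was so against neck was 3.17% for presumptive forelimb, 3.46% for forelimb HH19 and 2.73% for hindlimb. Against flank the shares were 3.52%, 4.15% and 3.50% in the same order. VWF and GJA4 were both at least 2-fold higher in presumptive forelimb than in flank and neck, as were 9.06% of genes, and both were also higher in hindlimb than in flank and neck, as were 4.39%. None of the 4 genes differed 2-fold between any pair of limb libraries, but the share of all genes that did so is not given here.

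The neck library was high for many genes, and the excess of the 4 genes was read against that. On the log2(CPM + 1) scale, neck minus the median of the other 5 libraries was 0.19 for the median gene of 12737, above 0 for 67.1% of genes, at least 1 for 7.71% and at most -1 for 1.44%. The same difference was 2.66 for TEK, a value reached or passed by 65 of the 12737 genes. It was 1.89 for VWF, reached by 209 genes, and 1.69 for PECAM1, reached by 291 genes. For GJA4 it was -1.42, and 84 genes were at or below that. Neck was the highest library for 30.3% of all genes, among them TEK, VWF and PECAM1, and hindlimb was the highest for 7.84%, among them GJA4. Neck was at least 2-fold above each other library separately for 1.43% of genes, including TEK and VWF but not PECAM1.

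Other endothelial genes were read on the same scale. A list of 60 pan-endothelial genes had 39 members in the table besides the 4, and 38 of these reached 1 CPM. Of the 38, 32 were above the median of the other libraries in neck, as were 67.1% of all genes. At least 2-fold above it were 13, or 34.2%, beside 7.71% of all genes. The median difference of the 38 was 0.76, beside 0.19 over all genes. Single genes went further, with 2.39 for PALMD, 2.07 for ENG and 1.85 for ROBO4. KDR, the main VEGF receptor, had 18.8, 15.8, 15.8, 43.2, 22.8 and 45.7 CPM in presumptive forelimb, forelimb HH19, hindlimb, neck, flank, and flank and neck. ENG, a co-receptor of the TGF-beta family, had 6.73, 11.7, 11.02, 52.1, 14.99 and 34.4 CPM in the same order. Both were thus high in the library of flank and neck as well, where TEK and VWF were not.

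Of the 38 genes, 21 had their highest level in neck, beside 30.3% of all genes, and 12 in flank and neck, beside 22.7% of all genes. When the library of flank and neck was left out, a choice made after seeing the data, 29 of the 38 were highest in neck, beside 38.7% of all genes. At least 2-fold above each other library in neck, as TEK and VWF were, stood 1.43% of all genes. Of the 38 genes, 3 stood so. They were ROBO4, a guidance receptor of endothelium that had 4.79 CPM in neck and 0.336 to 1.14 CPM elsewhere, ADGRL4, an adhesion receptor with 10.8 CPM in neck and 2.46 to 4.88 CPM elsewhere, and PALMD with 5.41 CPM in neck and 0 to 1.57 CPM elsewhere. The summed level of the list without the 4 genes was 327, 543, 527, 785, 399 and 783 CPM in the library order above. Flank and neck thus matched neck in the sum, in which genes of high level weigh most. ETS1, HEG1 and RHOJ had 175, 38.9 and 13.4 CPM in neck and 197, 82.9 and 48.2 CPM in flank and neck, while 21 of the 38 genes were highest in neck.

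Lists of other cell types were read in neck in the same way. The ectoderm list had 4 of 6 genes at least 2-fold above the median of the other libraries in neck, beside 7.71% of all genes. Its median difference was 1.90, but 0 of the 6 were highest in neck. Its summed level was 181 CPM in neck, 281 in presumptive forelimb, 240 in flank and 38.4 to 41.2 in the other 3 libraries. All 4 measured leukocyte genes were highest in neck, as were 30.3% of all genes, with sums of 26.8 CPM there and 9.68 to 17.98 CPM elsewhere. For each of the 4 the neck interval overlapped that of the next library. The measured leukocyte genes included SPI1 at 3.56 CPM in neck. The thrombocyte list, whose mammalian counterparts also carry VWF and PECAM1, had 5 genes in the table and gave a summed level of 12.7 CPM for neck and of 17.6 CPM for flank, against 3.79 to 8.29 CPM in the other 4 libraries. GP9, a subunit of the VWF receptor complex of these cells, had 2.09 CPM in neck, 2.66 CPM in flank and 0 to 0.104 CPM in the other 4, while GP1BA, another subunit, was at 0 in neck and 0.121 CPM in flank. The parts these cells have in the levels of VWF and PECAM1 were not tested. The mural list, for the pericytes and smooth muscle cells of the vessel wall, summed to 85.8 CPM in neck and 35.8 to 233 CPM elsewhere, with a median neck difference of 0.43 over 8 genes. All 9 measured blood genes, 5 of them globins, were at or below the median of the others in neck, as were 4191 of 12737 genes. Globins, with 2186 CPM in neck but 40064 CPM in flank, did not follow TEK or VWF.

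**Figure D2:**
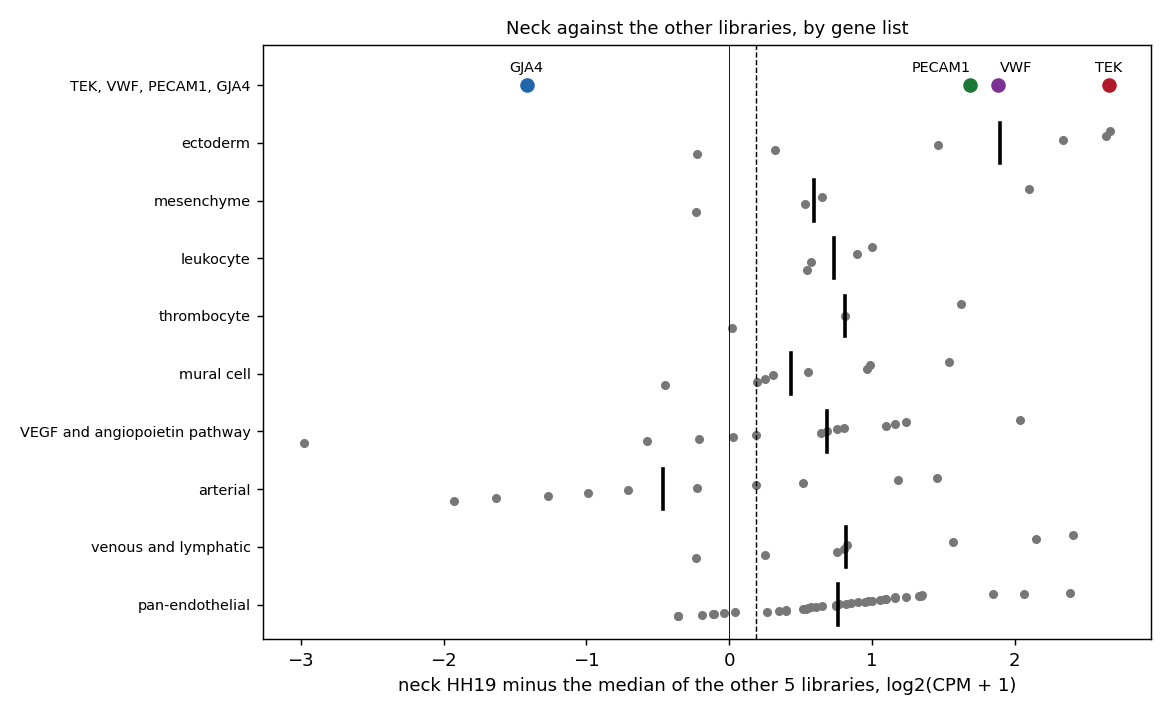
Difference of neck HH19 from the median of the other 5 libraries on the log2(CPM + 1) scale (horizontal axis) for the genes of 9 lists, with grey points for genes, black ticks for list medians and a dashed line for the median of all genes (0.19). TEK at 2.66, VWF at 1.89 and PECAM1 at 1.69 lie to the right of the pan-endothelial median of 0.76, and GJA4 at -1.42 lies to the left with part of the arterial list.

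Each of the 4 genes was also expressed relative to 8 pan-endothelial reference genes. These were KDR, TIE1, ERG, FLI1, SOX18, EGFL7, ESAM and ROBO4, whose mean log2(CPM + 1) was 2.86 in presumptive forelimb, 3.34 in forelimb HH19, 3.43 in hindlimb, 4.23 in neck, 3.19 in flank and 3.72 in flank and neck. Neck was highest here as well, by 0.89 over the median of the others. TEK minus this reference was -0.17, -0.81, -0.45, 1.13, -0.38 and -1.15 in the same order. On this scale neck was 1.58 above the median of the other libraries for TEK, and the other 5 libraries lay between -1.15 and -0.17.

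For VWF the values relative to the reference were -0.33, -1.33, -1.12, -0.13, -0.98 and -2.49. Neck was the highest but only just above presumptive forelimb, and flank and neck was the lowest. PECAM1 had 0.19, -0.27, -0.49, 0.53, 0.86 and 0.13, so that relative to the reference flank and not neck was highest, and both lay above every limb library. GJA4 had -0.14, -1.12, -0.45, -3.43, -2.41 and -2.12, and its lowest value relative to the reference was in neck, 2.31 below the median of the others (difference -2.31). Its 3 limb values ran from -1.12 to -0.14 and the 3 others from -3.43 to -2.12. For PECAM1 and GJA4, the share of all genes that separate so on this scale was not counted. No test was made on these ratios, since each is a single library.

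**Figure D3:**
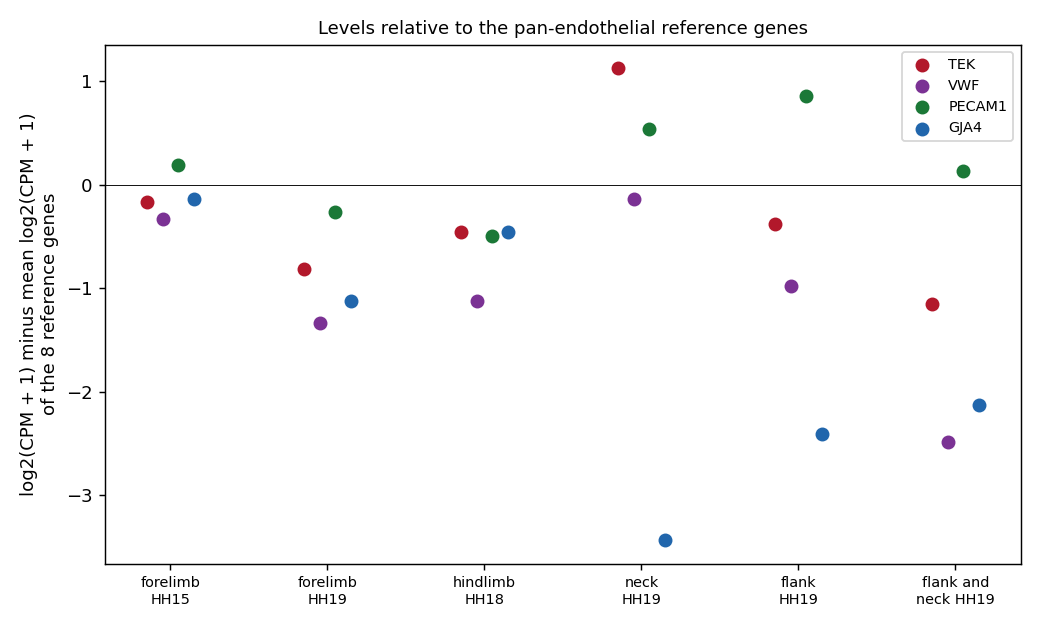
Log2(CPM + 1) of TEK, VWF, PECAM1 and GJA4 minus the mean log2(CPM + 1) of 8 pan-endothelial reference genes (vertical axis) in each of the 6 libraries (horizontal axis), with 1 point per gene and library. TEK is at 1.13 in neck and at or below -0.17 elsewhere, PECAM1 is highest in flank at 0.86, and GJA4 lies between -3.43 and -2.12 in the 3 libraries of neck, flank, and flank and neck.

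The series compares limb with non-limb mesenchyme, and the 3 limb libraries were tested against neck and flank with edgeR's quasi-likelihood test and Benjamini-Hochberg adjustment over 12486 genes. Tissues and stages serve as the samples of a class, so the p-values set the class difference against the spread among tissues and stages of a class. That spread may be partly technical and is not replicate error. Neck and flank are both of HH19, while the limb libraries are of HH15, HH18 and HH19. The class difference is therefore partly one of stage. None of the 4 genes passed an adjusted p below 0.05, where 17 of all genes did (0.136%, with 7 or 0.0561% higher in limb and 10 or 0.0801% lower). At an unadjusted p below 0.05 stood 3 of the 4, PECAM1 and TEK with lower and GJA4 with higher limb levels, beside 10.5% of all genes lower and 12.9% higher. DESeq2 called 2 of them, PECAM1 lower and GJA4 higher in limb, and limma-voom called 0. DESeq2 was far freer with calls, since it called 1336 of the 11513 genes to which it gave an adjusted p (11.6%, with 7.50% higher and 4.11% lower in limb), and its calls below are to be read against those shares.

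GJA4 had the smallest adjusted p of the 4. Its limb minus non-limb difference was 2.98 ± 0.45 (log2, SE), with edgeR's adjusted p = 0.0561, and its limb levels all lay above both non-limb levels, as for 15.4% of genes. For PECAM1 the difference was -1.40 ± 0.23 with edgeR's adjusted p = 0.059, and its limb levels all lay below both non-limb levels, as for 27.5% of genes. TEK had -1.82 ± 0.67 (adjusted p = 0.175) and VWF -1.16 ± 0.56 (adjusted p = 0.267), and for both the flank level lay within the range of the limb levels. The median fitted difference was -0.02 over all genes and -0.48 over the 38 other pan-endothelial genes. Of these 38, 29 were fitted lower and 9 higher in limb, beside 6435 and 6051 of all 12486 genes. EdgeR called 0 of the 38. At an unadjusted p below 0.05, 0 were higher and 5 lower in limb (KDR, ENG, LMO2, CD93 and PALMD), beside 12.9% and 10.5% of all genes. DESeq2 called 3, all lower, beside 4.11% of genes called lower and 7.50% called higher. Limma-voom called 0.

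The difference of TEK and VWF rested on the neck library. Without the neck library the fitted difference was -0.03 ± 0.38 for TEK and 0.15 ± 0.45 for VWF, whose sign turned, and the median of the 38 pan-endothelial genes went from -0.48 to 0.15. Without flank it was -2.59 ± 0.28 for TEK (adjusted p = 0.0937) and -1.84 ± 0.35 for VWF (adjusted p = 0.174). GJA4 kept its size without neck, at 2.91 ± 0.64. PECAM1 kept its sign but was smaller without neck, at -1.08 ± 0.27 against -1.40 ± 0.23 with all 5 libraries. Without presumptive forelimb HH15 edgeR's adjusted p reached 0.0496 for PECAM1 and 0.0413 for GJA4, but in that fit 620 of 12267 genes were called (5.05%), against 17 with all 5 libraries. Where a class was left with 1 library, that library was assumed to vary like those of the other class.

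Among markers of other cells, edgeR called 0 of the 8 mural, 3 thrombocyte, 4 leukocyte, 9 blood, 8 junction, 4 mesenchyme and 6 ectoderm genes. At an unadjusted p below 0.05 these held 0 higher and 1 lower mural gene, 0 and 2 thrombocyte genes (GP9 and PLEK, both lower in limb), 0 and 0 leukocyte genes, 2 and 3 blood genes, 0 and 1 junction genes, 0 and 2 mesenchyme genes and 0 and 0 ectoderm genes. Over all genes 12.9% were higher and 10.5% lower in limb at that p. DESeq2 called the junction gene TJP1 lower in limb and none of the other genes of these lists, and limma-voom called 0. PECAM1 shares its direction with the 3 fitted thrombocyte genes. Of these, GP9 had a fitted difference of -5.33 ± 0.95 with edgeR's adjusted p = 0.0635. Its size is loosely fixed, since both forelimb libraries had 0 GP9 reads and hindlimb had 1. GP1BA and GP1BB were too low to be fitted. GP1BB was also lower in limb, but GP1BA ran the other way. The limb libraries averaged 0.444 CPM of GP1BA, while neck and flank averaged 0.0604 CPM. The part of thrombocytes in the PECAM1 level was not tested.

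**Figure D4:**
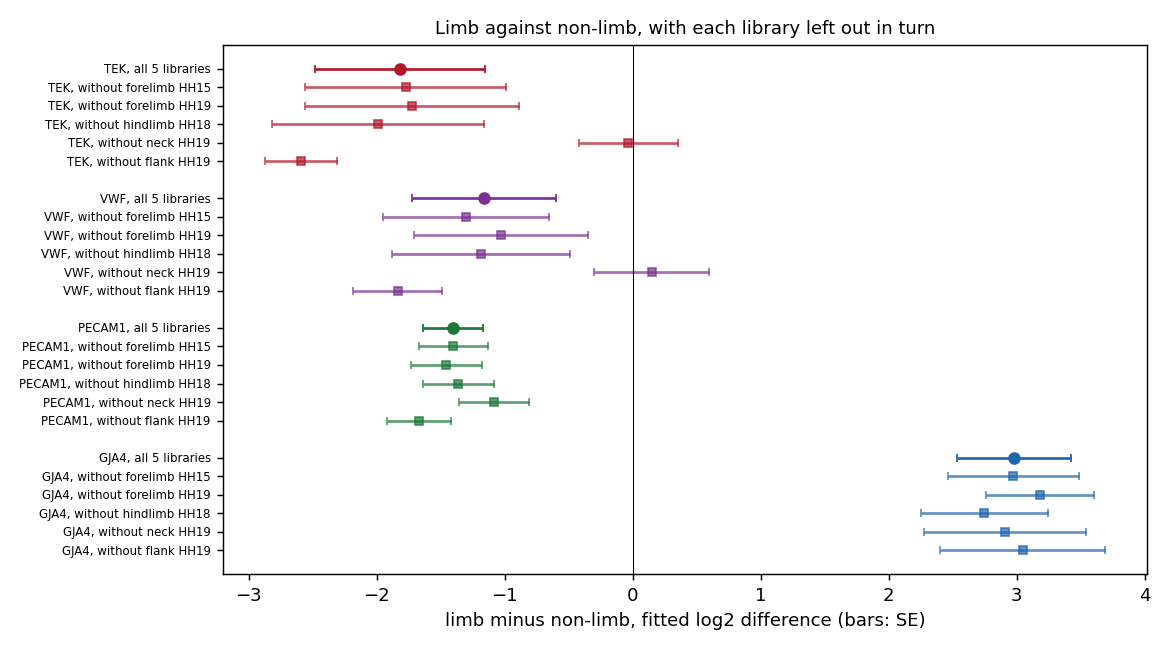
Fitted log2 difference of limb minus non-limb (horizontal axis, bars for the SE) for each of the 4 genes with all 5 libraries (circles) and with each library left out in turn (squares). TEK and VWF move to -0.03 and 0.15 without neck HH19, while PECAM1 stays at or below -1.08 and GJA4 stays above 2 in every fit.

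TEK signals with a small set of partners. TIE1, the related orphan receptor that joins TEK in complexes, had 4.63, 9.68, 11.95, 24.2, 10.2 and 5.83 CPM in presumptive forelimb, forelimb HH19, hindlimb, neck, flank, and flank and neck. Neck was again the highest, 1.24 above the median of the others on the log2 scale against 2.66 for TEK. ANGPT1, the activating ligand of TEK made mostly by cells around the vessel, had 0.982, 1.88, 0.624, 9.58, 1.57 and 4.37 CPM, from 78 reads in neck and 6 to 39 elsewhere. It was highest in neck together with its receptor, and second highest in flank and neck, where TEK was not raised.

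ANGPT2, a ligand that can oppose ANGPT1, did not share that pattern. It had 0.841, 2.51, 6.03, 2.58, 1.57 and 4.48 CPM and was highest in hindlimb. PTPRB, the endothelial phosphatase that acts on TEK, had 2.38, 4.52, 5.30, 10.8, 3.51 and 29.8 CPM and was highest in flank and neck. Of the 13 measured genes of the VEGF and angiopoietin list besides TEK, 10 were above the median of the others in neck, beside 67.1% of all genes. Their highest level was in neck for 4 of the 13, beside 30.3% of all genes. EdgeR called 0 of the 13 between limb and non-limb. At an unadjusted p below 0.05, 2 were higher and 3 lower in limb, beside 12.9% and 10.5% of all genes. DESeq2 called VEGFA and VEGFD, both ligands, higher in limb, beside 7.50% of genes, and limma-voom called 0. VEGFD had 9.68, 85.2, 119.5, 8.60, 5.32 and 74.7 CPM, and VEGFA had 9.40, 12.3, 10.4, 6.63, 4.11 and 71.0 CPM. Both were thus high in flank and neck, a library outside this comparison, and VEGFA was far higher there than in any limb library.

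A list of genes around VWF, for its storage, processing and partners, had 9 genes in the table, of which 7 reached 1 CPM. The list includes ANGPT2 and GP1BA, both described above. All 7 were above the median of the others in neck, as were 67.1% of all genes, ANGPT2 by only 0.03. Their median was 0.24, near the 0.19 of all genes. F8, the clotting factor that VWF carries in the blood, had 0.280, 0.377, 0.520, 2.58, 0.725 and 1.23 CPM, and ADAMTS13, the protease that cuts VWF, had 1.35 CPM in neck and 0.104 to 1.12 CPM elsewhere. Both are low, with few reads. SELP, a protein of the VWF storage granule, stayed under 1 CPM in every library. The list of junction and adhesion genes, the company of PECAM1, had a median neck difference of 0.30 over 8 genes, against 1.69 for PECAM1. Of the VWF list edgeR, DESeq2 and limma-voom called 0 of 7 between the classes. At edgeR's unadjusted p below 0.05, 0 were higher and 1 lower in limb, beside 12.9% and 10.5% of all genes.

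GJA4 was set beside other connexins. GJA5 (connexin 40), which in mouse is the partner of GJA4 in arterial endothelium, had 15 reads in presumptive forelimb, 50 in forelimb HH19, 358 in hindlimb, 0 in neck, 5 in flank and 18 in flank and neck. Its levels were 2.10, 6.28, 37.2, 0, 0.604 and 2.02 CPM, so hindlimb was far above all others and neck was at 0, below the floor of 0.369 CPM. Its limb minus non-limb difference was 5.72 ± 1.73 with edgeR's adjusted p = 0.13, and DESeq2 called it. GJA4 and GJA5 thus both had their highest level in hindlimb and their lowest levels in neck and flank, although GJA4 was as high in presumptive forelimb as in hindlimb within counting error and GJA5 was not.

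The widely used connexins did not behave so. GJA1 (connexin 43), the main connexin of mesenchyme, had 868, 531, 468, 706, 992 and 386 CPM. GJC1 (connexin 45) had 15.7, 17.1, 26.0, 34.8, 26.7 and 21.9 CPM, with higher levels in neck and flank than in every limb library, although flank and hindlimb did not differ beyond counting error. A further 6 connexins of the list stayed below 0.3 CPM or at 0 in every library. Of GJA5, GJA1 and GJC1, edgeR and limma-voom called 0. At edgeR's unadjusted p below 0.05 stood 1 of the 3 (GJA5, higher in limb), beside 12.9% of all genes higher and 10.5% lower.

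Some arterial genes followed GJA4 and some did not. CXCR4, a chemokine receptor of arterial and migrating cells, had 3.93, 10.3, 5.61, 0.737, 0.363 and 10.98 CPM in presumptive forelimb, forelimb HH19, hindlimb, neck, flank, and flank and neck. Its limb minus non-limb difference was 3.71 ± 0.64 with edgeR's adjusted p = 0.0632. SEMA3G, a semaphorin of arterial endothelium, had 1.12, 3.77, 5.20, 0.983, 0.846 and 3.92 CPM. Both were low in neck and flank as GJA4 was, and SEMA3G was also low in presumptive forelimb, where GJA4 was not. In flank and neck both lay within the range of forelimb HH19 and hindlimb or above it, while the level of GJA4 there lay below both, with an interval that overlapped that of forelimb HH19.

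EFNB2, the ephrin ligand of arterial endothelium, was highest in neck, at 9.46 CPM against 2.69 to 4.35 CPM elsewhere. Of the 10 measured arterial genes besides GJA4, 8 were fitted higher in limb, as were 6051 of all 12486 genes, with a median fitted difference of 0.54. In neck 6 of the 10 were at or below the median of the others, as were 4191 of 12737 genes, with a median of -0.47. EdgeR called 0 of the 10, with 4 higher and 2 lower in limb at an unadjusted p below 0.05, beside 12.9% and 10.5% of all genes. DESeq2 called CXCR4, GJA5 and NOTCH1 higher in limb, beside 7.50% of genes, and limma-voom called 0. Most of these genes are also used outside the endothelium, so the list is not a measure of arteries alone.

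On the venous and lymphatic list 2 of 8 measured genes were at least 2-fold above each other library in neck. TEK and VWF were so too, as were 1.43% of all genes. All 8 genes of the list were fitted lower in limb, as were 6435 of all 12486 genes, with a median fitted difference of -0.82. In neck 7 of 8 were above the median of the others, as were 67.1% of all genes. Neck was the highest library for 4 of the 8, beside 30.3% of all genes. STAB2, a scavenger receptor of sinusoidal and lymphatic endothelium, had 3.65, 4.78, 7.90, 29.7, 11.2 and 2.46 CPM in the same order of libraries. LYVE1, a hyaluronan receptor of lymphatic and some venous endothelium and of macrophages, had 43 reads or 5.28 CPM in neck and 0.126 to 0.604 CPM elsewhere, the latter from at most 5 reads. APLNR, the apelin receptor of venous endothelium, had 14.9, 22.7, 7.69, 46.1, 19.5 and 6.72 CPM.

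STAB2 and LYVE1 were the genes of this list at least 2-fold above each other library in neck, beside 1.43% of all genes. PROX1, the regulator that defines lymphatic endothelium, was not raised in neck, with 3.07 CPM there and 0.377 to 5.92 CPM elsewhere. NR2F2, a regulator of venous identity that mesenchyme also makes, was highest in flank at 329 CPM and lowest in flank and neck at 45.3 CPM. NRP2, a co-receptor of VEGF ligands, was highest in presumptive forelimb at 237 CPM, and PDPN, a lymphatic surface glycoprotein, in flank and neck at 15.7 CPM. EdgeR called 0 of the 8 between the classes. At an unadjusted p below 0.05, 0 were higher and 3 lower in limb (FLT4, LYVE1 and STAB2), beside 12.9% and 10.5% of all genes. DESeq2 called STAB2 lower in limb, beside 4.11% of genes called lower, and limma-voom called 0.

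**Figure D5:**
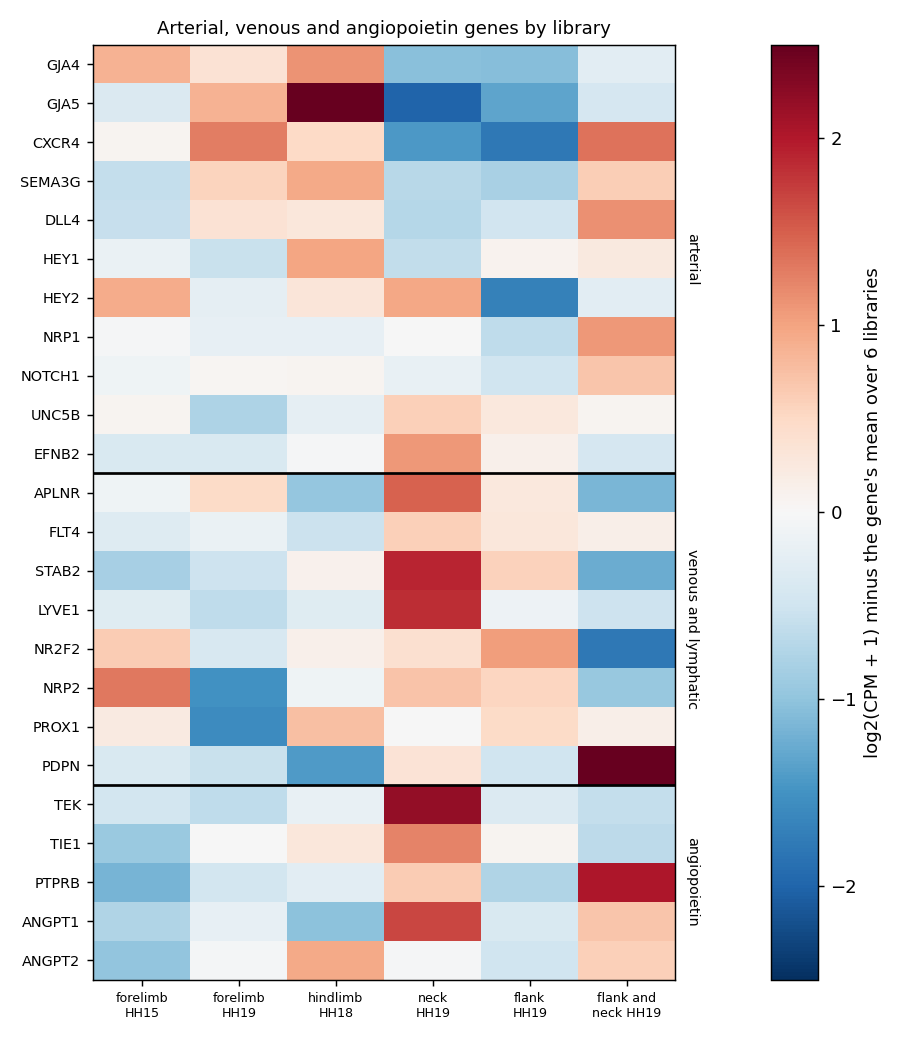
Levels of GJA4 with 10 arterial genes, 8 venous and lymphatic genes, and TEK with 4 genes of the angiopoietin system, each as log2(CPM + 1) minus the gene's mean over the 6 libraries (colour, with red above and blue below the mean; rows are genes and columns are libraries). STAB2, LYVE1, APLNR, TEK and ANGPT1 are reddest in neck, while GJA4, GJA5, CXCR4 and SEMA3G are blue in neck and flank. The lists do not divide cleanly. The arterial genes EFNB2, HEY2 and UNC5B are also highest in neck, and the venous and lymphatic genes NR2F2, NRP2, PROX1 and PDPN are highest in other libraries.

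The library labelled flank and neck did not lie between its named tissues for any of the 4 genes. Among all genes 18.9% lay between neck and flank there, as did 11 of the 38 pan-endothelial genes. TEK at 4.93 CPM, VWF at 1.34 CPM and PECAM1 at 13.4 CPM were below both neck and flank, and GJA4 at 2.02 CPM was above both. For TEK, PECAM1 and GJA4 the interval overlapped that of flank. When this library was added to the non-limb class, the fitted difference was -1.41 for TEK, -0.69 for VWF, -1.26 for PECAM1 (adjusted p = 0.124) and 2.25 for GJA4 (adjusted p = 0.148), by edgeR.

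Over the 6 libraries TEK and VWF varied together, with a Pearson r of 0.91 of log2(CPM + 1), and PECAM1 and GJA4 varied in opposite directions, with r of -0.93. The other pairs had r of 0.75 (TEK and PECAM1), 0.52 (VWF and PECAM1), -0.51 (TEK and GJA4) and -0.32 (VWF and GJA4). These 6 points share their library and depth between genes, and for TEK and VWF the value rests on neck standing apart, so they are descriptions and carry no p.

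Among 7442 genes with 5 CPM or more in some library, the named genes most like TEK over the 6 libraries were LOC424004 (r of 0.995), LYVE1 (0.992), PRDM6 (0.990), ARID1A (0.989) and ABTB2 (0.986). LYVE1 is also on the venous and lymphatic list, and PRDM6, a regulator known from smooth muscle, had 8.72 CPM in neck and at most 0.604 CPM elsewhere. The genes most like VWF were MAGT1 (0.992), CTCF (0.989), STARD3 (0.989), MTF1 (0.987) and STAB1 (0.984), of which STAB1 is on the pan-endothelial list. Each gene was picked for the highest r among 7442 over 6 points, so a high r follows from the choice. The size of a change does not enter r. ARID1A had 111 CPM in neck and 67.6 to 74.1 CPM elsewhere, and CTCF had 135 CPM in neck and 101 to 114 CPM elsewhere.

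For PECAM1 the most alike were ZDHHC7 (0.998), CHD5 (0.995), ANKFY1 (0.995), TMEM61 (0.993) and ARHGEF11 (0.992). For GJA4 they were NUDT7 (0.994), G3BP1 (0.987), RRP15 (0.985), LOC424109 (0.984) and PARP1 (0.978). None of these 10 is on an endothelial list, and the shapes differ in size, since PARP1 went from 351 CPM in neck to 509 CPM in presumptive forelimb while GJA4 went from 0.737 to 5.61 CPM. TEK is on chromosome Z. Neck minus the median of the others had a median of 0.28 over 563 genes of that chromosome, against 0.18 over 12174 genes elsewhere. At or above the value of TEK were 6 genes of chromosome Z, TEK among them, and 59 genes elsewhere.

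The authors' deposited table also holds p-values for pairs of libraries, whose test is not stated. In the authors' deposited table the p-value for flank against neck was 9.82e-52 for TEK, 7.84e-17 for VWF, 2.49e-06 for PECAM1 and 0.976 for GJA4. For hindlimb against neck the authors' deposited table gives 5.14e-12 for GJA4. Each of these compares the reads of single libraries, not the tissues.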

How the data were processed

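PolyA RNA of dissected chick mesenchyme was sequenced as 6 libraries, and the authors deposited 1 table of 17781 genes. Its read columns are deposited raw counts per gene, and its normalised columns are CPM made by the authors, which were recomputed from the counts. Its fold columns are a ratio of 2 libraries made by the authors, and its p-value columns were deposited with no test stated. TopHat 1.4.0 and the build galGal4 appear in the submitters' processing notes without a role; the read counter, the strand setting and the annotation are not given in the sources used here. Coordinates in the table could not be tied to that build and are left out. The flank and neck column was matched by its initials and stage, and 0 per-sample columns were unused.

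The 4 genes and the 14 gene lists (195 genes, 129 in the table) were chosen with earlier results of these data known. Named genes are the 4, genes of the vessel lists that passed the test or had high levels, the reference genes, the connexins and TIE1, and the 5 genes most alike to each of the 4; other list genes were named after their values were seen. In the table, 35 entries were named by hand from their UniProt entry names. CDH5 and EMCN, planned as reference genes, were not used here, and 1 gene of the lists is not reported here.

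Differences between single libraries are on log2(CPM + 1) and counted at 2-fold among genes at 1 CPM or more in a library compared. The limb class (3 libraries) was compared with neck and flank (2) by edgeR's quasi-likelihood test, two-sided, on counts with TMM factors, keeping genes that reached 1 CPM in any library fitted, with Benjamini-Hochberg adjustment; edgeR's common biological coefficient of variation came to 0.283. The fit was tested on simulated data. These gave every gene the same spread and held no tissue or stage effects within a class, which that test therefore does not cover. Alternatives were DESeq2, limma-voom, no TMM factors, filters of 1 read and 5 CPM, each library left out, globin genes left out, flank and neck added, and a pseudocount of 0.1 CPM. Intervals are 95% Wilson intervals. The SE given with edgeR's differences was derived from the test, as the absolute log2 difference over the square root of its F statistic. The tools were edgeR 4.0.16, DESeq2 1.42.0 and limma 3.58.1 under R 4.3.3, and pandas 2.3.3, numpy 2.4.6 and matplotlib 3.10.9 under Python 3.11.15.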

Additional observations from a re-analysis of the deposited data

How the results depend on the processing

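Of the 4 genes, edgeR called 0 between limb and non-limb, and 2 (PECAM1 and GJA4) were called by DESeq2, without the filter beyond 1 read, and without presumptive forelimb HH15, with a range of 0 to 2 over the libraries left out in turn. Over all genes edgeR called 17, against 1336 by DESeq2, 106 by limma-voom, 30 without TMM factors, 259 without the filter, 0 with flank and neck added, and 0 to 620 with 1 library left out; the cause was not tested. DESeq2 called 3 of the 38 pan-endothelial genes (ENG, LMO2 and PALMD, all lower in limb), where it called 4.11% of genes lower. EdgeR called 0 of the 38, with 5 lower at an unadjusted p below 0.05, where 10.5% of all genes were. The difference of VWF reversed without neck, to 0.15, and ranged from -1.84 to 0.15 over the libraries left out in turn. The sign of the other 3 genes held in every alternative fit. For TEK this says little, since its difference was -0.03 without neck, against -1.82 in the main fit. Without TMM factors the median of all genes moved from -0.02 to -0.16, and the adjusted p was 0.0772 for both PECAM1 and GJA4. Of 60 differences between single libraries, 25 were at least 2-fold, 31 with a pseudocount of 0.1 CPM and 27 with globins and the most read gene left out. Relative to the reference genes, the neck difference of PECAM1 was 0.40, but 0.73 with summed reference levels and up to 0.63 with a reference gene left out, and that of GJA4 was -2.31, but -3.17 with the smaller pseudocount. The summed pan-endothelial level in neck was 0.65 (log2) over the median of the others, and 1.02 by the median of log2 levels, 0.57 without the 4 genes and 0.79 without ETS1. No paired analysis was possible because each tissue and stage has 1 library and nothing in the labels pairs them. Depth limits GJA4 in neck and flank most, at 6 reads each.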
